A study of Mus musculus with 70 samples.

Results

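Among the 11 air-exposed mouse lungs collected 9 months after exposure, 3 held far more RNA of Chil3 than the other 8. Those 3 lungs were set apart by 1 measured value: a Chil3 level above 1500 CPM (the count scaled to the library total). They are 1 wildtype and 2 knockout lungs, wildtype replicate 5 and the libraries labelled knockout replicates 4 and 5, and the other 8 are 4 wildtype and 4 knockout lungs. The series holds 70 libraries, each from a piece of 1 lung, read by sequencing of total RNA depleted of ribosomal RNA.

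All mice were males bred from heterozygous 129S-Slc26a4tm1Erg/AjgJ stock and were homozygous knockout or homozygous wildtype for Slc26a4, the gene of the anion exchanger pendrin. They entered a whole-body inhalation chamber at roughly 3 months of age and received either Min-U-Sil5 crystalline silica, at 15 mg/m3 for 6 hours a day on 4 days, or air. Lungs were taken after 1 day, 3 months or 9 months, so the 11 air lungs studied here came from mice near a year of age that had never met silica in the chamber. Beside them stand 11 silica lungs of 9 months (6 knockout, 5 wildtype) and, at 1 day and at 3 months alike, 6 lungs in each of the 4 combinations of exposure and genotype. The knockout allele is carried in every cell, and mice were housed several to a cage, with no cage named for a lung.

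Chil3 encodes Ym1, a secreted chitinase-like protein that binds sugars but does not digest chitin, and alveolar macrophages are its main source in the mouse lung. Interleukin 4 and interleukin 13, the cytokines of type 2 immunity, raise Chil3 in macrophages together with Retnla, which encodes the secreted protein Fizz1, and in the airway lining they raise Clca1, a secreted protein of goblet cells, and pendrin. Ym1 can form crystals in lung macrophages, and a spontaneous crystal-laden macrophage pneumonia is known in ageing mice of several strains, 129 among them. Histology of these lungs was not used here.

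Values below are normalised CPM, which divide a count by its library's total after scaling by trimmed mean of M values (TMM). Because Chil3 itself made the groups, every difference between the 3 libraries and the other 8 is given as a description with no test. Wildtype replicate 5 held 7986 normalised CPM of Chil3, the library labelled knockout replicate 4 held 6563 and knockout replicate 5 held 2987, against a lowest of 671, a median of 812 and a highest of 1079 in the other 8. On the scale of the rule, CPM of the library total, knockout replicate 5 was the library just inside the threshold at 3140, and knockout replicate 3 was the one just outside at 1112.

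Library totals were alike, 2101806 to 2196363 counts in the high-Chil3 libraries and 1464184 to 2612379 in the other 8, within a span of 802478 to 5596318 over all 70. Lung markers were present on both sides, but not all at like levels. Sftpc, the surfactant protein of alveolar type 2 cells, lay at 5228 to 6749 normalised CPM in the high-Chil3 libraries and 4450 to 5472 in the other 8. The endothelial marker Pecam1 did not overlap, at 353.4 to 474.8 against 514.4 to 675.7. Ager, of alveolar type 1 cells, lay at 880.2 to 1738 against 1228 to 1773. Scgb1a1, of club cells, lay at 6367 to 12417 against 10107 to 18057. The share of counts taken by Lars2, the gene with large counts in ribosome-depleted mouse libraries, was 6.56% to 10.2% against 5.26% to 14.1%. No pair of these libraries repeated another, since counts differed more than sampling allows in every pair of 1 genotype (chi-square per degree of freedom of 10.1 for the 1 pair with both libraries high, and 1.96 to 5.51 for 12 pairs with neither high). Separate mice are named by the labels only through sample identifiers, so the spread between libraries is taken here as that between lungs, and p-values measure the spread between these samples.

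Slc26a4 does not settle which genotype each of these libraries had. The table counts the whole gene and not its deleted part, and knockout silica lungs held Slc26a4 counts too. Slc26a4 stood at 73.9 normalised CPM in wildtype replicate 5, at 51.5 in the library labelled knockout replicate 4 and at 16.8 in knockout replicate 5. The other 4 knockout libraries held 1.32 to 3.70 and the other 4 wildtype libraries 6.40 to 21.5. The library labelled knockout replicate 4 therefore lay above every other knockout library of the series, of which the highest, a silica lung of 3 months, held 36.3. Results that rest on its label are given with that library named.

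Retnla (chr16:48842609-48844461 on GRCm38.p6, plus strand) was the marker that followed the rule without overlap. It reached 566 normalised CPM in wildtype replicate 5, 3588 in the library labelled knockout replicate 4 and 845 in knockout replicate 5, against a lowest of 44.6, a median of 66.5 and a highest of 159.9 in the other 8. All 3 values exceeded the 180.2 of the highest of the 59 libraries outside the 9-month air groups, and the ratio of means was 21.6. The order of the 3 libraries was not that of Chil3: the lung with the most Chil3 had the least Retnla. Chil4, the close relative of Chil3 that encodes Ym2, was at 1.86, 70.8 and 20.8 normalised CPM in wildtype replicate 5, the library labelled knockout replicate 4 and knockout replicate 5, against 0 to 0.886 in the other 8 and at most 1.24 in the 59. Chil3 and Chil4 lie side by side and are near-identical copies, so reads of the more abundant one may have been counted for the other, and the Chil4 values are uncertain for that reason.

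Clca1 (chr3:145004537-145032776) did not separate all 3. It reached 10.2 normalised CPM in wildtype replicate 5, 2118 in the library labelled knockout replicate 4 and 477 in knockout replicate 5. Among the other 8 it was 0 in 5 libraries, and it was 0.440, 2.21 and 16.5 in knockout replicates 2, 3 and 6. Wildtype replicate 5 thus lay below 1 knockout library of the other side, although within each genotype the high-Chil3 libraries were above the rest. The highest value among the 59 libraries was 29.4, in a knockout silica lung of 9 months.

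**Figure D1:**
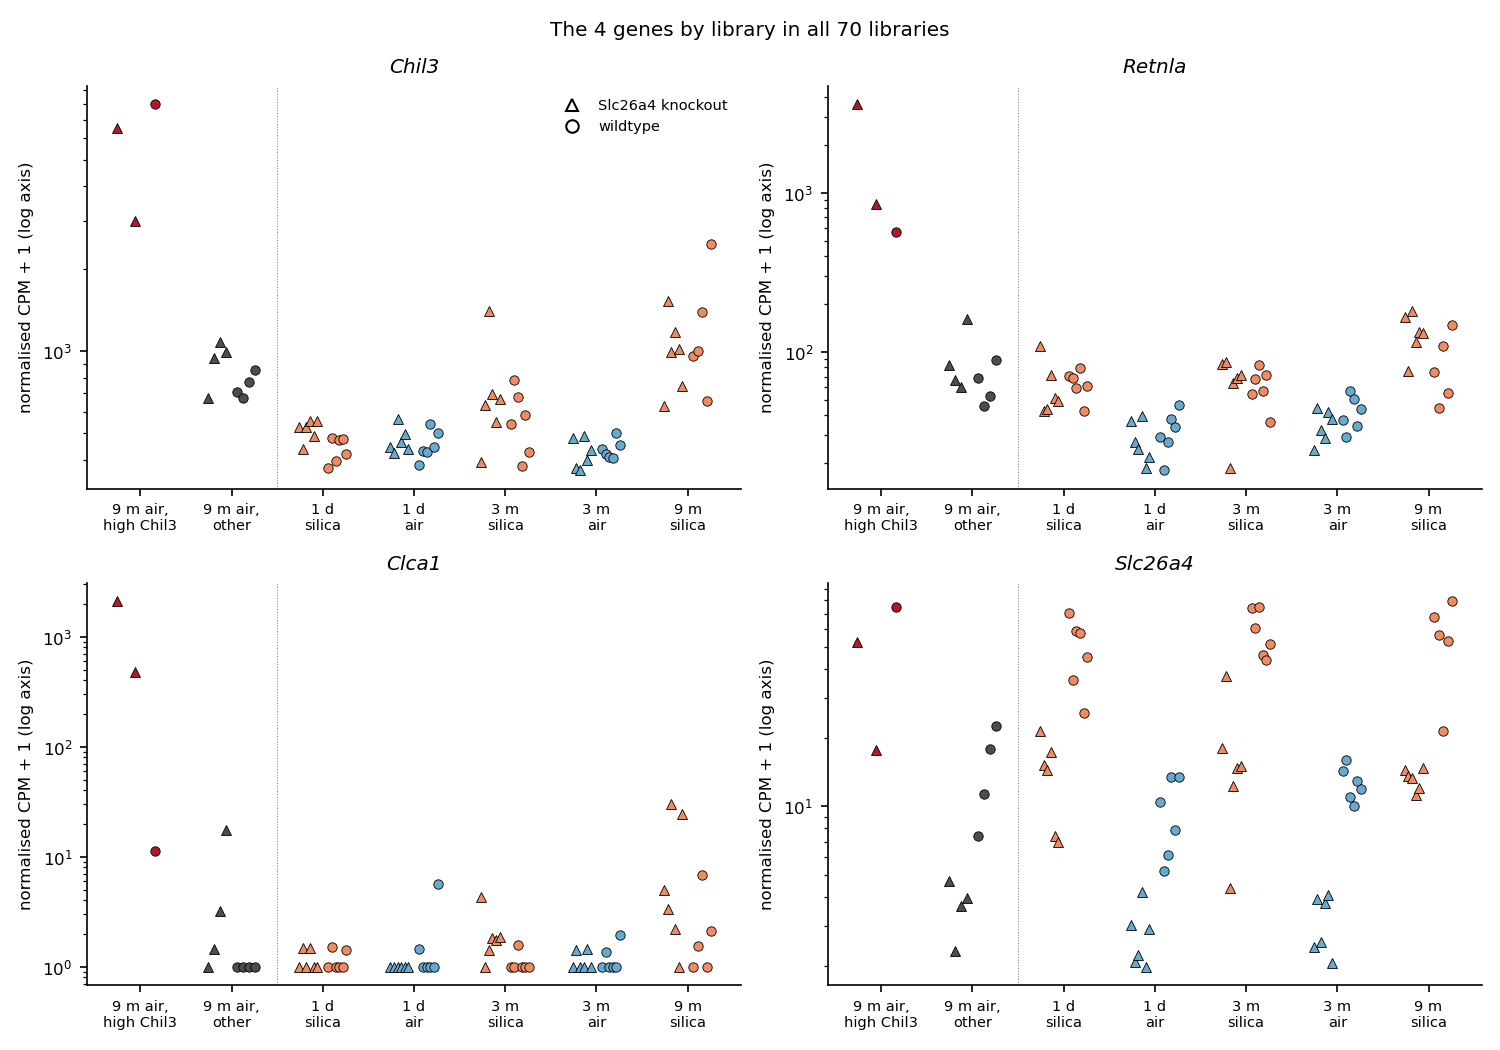
Normalised CPM plus 1 on a log axis for Chil3, Retnla, Clca1 and Slc26a4 in all 70 libraries, 1 point per library, knockout as triangles and wildtype as circles; columns give the 9-month air libraries with high Chil3, the other 9-month air libraries, and then silica and air at 1 day and 3 months and silica at 9 months. The 3 high-Chil3 libraries lie above every other library for Retnla (566 to 3588 against at most 180.2), while for Clca1 wildtype replicate 5, at 10.2, lies among the others.

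The promoters of Chil3, Chil4 and Retnla are shown because these genes respond to interleukin 4 and interleukin 13 in macrophages, and STAT6, the factor that both cytokines activate, binds palindromes of the forms TTCNNNGAA and TTCNNNNGAA. No sequence is shown for Clca1, Muc5ac, Ccl11, Alox15 and Arg1. Each sequence is the 250 bases before the annotated start, read 5′ to 3′ on the gene's strand from RefSeq on GRCm38.p6, with matches to either form in capitals. Chil3 (chr3:106167565-106167814, minus strand), Chil4 (chr3:106219480-106219729, minus strand) and Retnla (chr16:48842359-48842608, plus strand) each held 1 match.
Chil3: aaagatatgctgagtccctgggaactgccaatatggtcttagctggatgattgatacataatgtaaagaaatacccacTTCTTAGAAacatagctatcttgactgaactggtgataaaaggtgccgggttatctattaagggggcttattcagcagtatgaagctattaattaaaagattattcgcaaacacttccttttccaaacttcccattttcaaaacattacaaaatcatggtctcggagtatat
Chil4: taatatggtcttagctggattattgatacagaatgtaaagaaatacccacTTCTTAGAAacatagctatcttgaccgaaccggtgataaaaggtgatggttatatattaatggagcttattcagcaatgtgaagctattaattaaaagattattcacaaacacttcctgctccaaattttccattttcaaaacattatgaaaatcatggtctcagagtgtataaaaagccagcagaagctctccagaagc
Retnla: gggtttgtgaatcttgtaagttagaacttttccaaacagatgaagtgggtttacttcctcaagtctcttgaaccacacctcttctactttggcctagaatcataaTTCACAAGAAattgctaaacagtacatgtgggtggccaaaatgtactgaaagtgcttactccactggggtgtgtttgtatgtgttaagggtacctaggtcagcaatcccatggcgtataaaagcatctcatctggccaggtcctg
The Chil3 match ran from 172 to 164 bases before the start, the Chil4 match from 200 to 192, and the Retnla match from 145 to 136. Both forms read the same on either strand. Of 32851 promoters in the table, 7.02% held TTCNNNGAA and 5.85% held TTCNNNNGAA in the same window. A match describes letters only and is no evidence of binding. Aligned end to end, the Chil3 and Chil4 windows were identical at 201 positions, with 20 mismatches and 58 gapped positions.

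Beyond the markers, 14543 of 24423 genes averaged at least 1 normalised CPM over the 11 libraries and were described. A gene was called set apart if all 3 high-Chil3 libraries lay beyond all of the other 8 and the ratio of means was at least 2 in either direction. By that rule 250 genes were higher (1.72% of those described) and 38 were lower (0.261%), and 77 of the 250 were at least 4-fold higher. Without the condition on the ratio, all 3 lay above all 8 for 5.12% of the described genes and below all 8 for 5.33%, and 52.1% had a ratio of means above 1. The median log2 ratio of all described genes was 0.02, on a scale that TMM centres. Taken within each genotype alone, with 2 libraries against 4 in knockout and 1 against 4 in wildtype, 213 genes were higher in both, 186 of them among the 250, and 31 were lower in both, 21 of them among the 38. In bulk lung, more cells of a type and more RNA per cell cannot be told apart, which holds for every gene below.

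**Figure D2:**
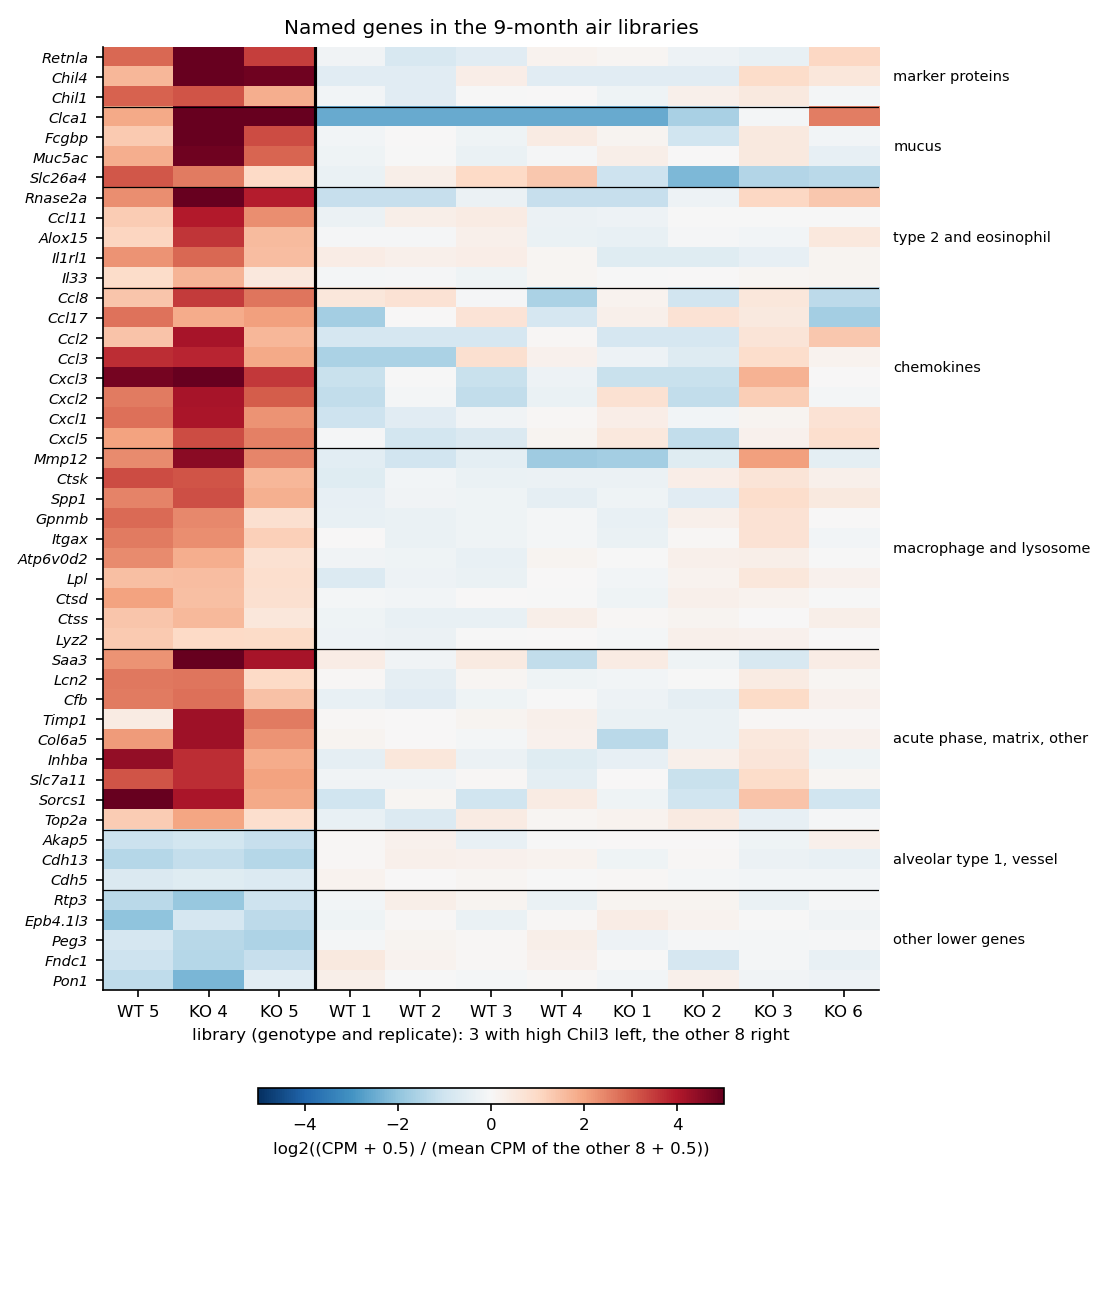
Log2 of normalised CPM plus 0.5 over the mean of the other 8 libraries plus 0.5 for named genes (down the page, by role) in the 11 air libraries of 9 months, the 3 with high Chil3 left of the black line and the other 8 right of it; colours stop at 5 in either direction. Many of the higher genes are darkest in KO 4 and palest in KO 5, and KO 3 stands above the rest of the other 8 for Mmp12 and Cxcl3.

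Among genes of alternative macrophage activation, the state that interleukin 4 and interleukin 13 induce, 19 were high enough to describe. Of these 8 were set apart higher (42.1%), Retnla and Chil4 being 2 of them, and none lower, all 19 had a ratio of means above 1, and the median log2 ratio was 1.80 against 0.02 for all genes. Ccl8, a chemokine of tissue macrophages, was at 6.51, 30.5 and 16.8 normalised CPM in wildtype replicate 5, the library labelled knockout replicate 4 and knockout replicate 5, against 0.414 to 4.00 in the other 8. Ccl17, which draws T cells bearing the receptor CCR4, was at 10.2, 5.38 and 6.34 in those libraries against 0 to 2.20. Here wildtype replicate 5 was the highest. Arg1, the arginase of alternatively activated macrophages, and Ccl24, an eosinophil chemokine, split the 3: Arg1 was at 1.40, 50.2 and 16.8 against 0 to 2.22, and Ccl24 at 0.465, 20.6 and 7.24 against 0 to 1.14. For both genes wildtype replicate 5 lay within the other 8.

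Of 11 described mucus genes of the airway 2 were set apart higher, Fcgbp and Muc5ac, 10 had a ratio of means above 1, and the median log2 ratio was 2.53. Fcgbp, a protein of the mucus gel, was at 10.7, 179.7 and 42.5 normalised CPM in wildtype replicate 5, the library labelled knockout replicate 4 and knockout replicate 5, against 1.76 to 5.76 in the other 8 (median 3.78), a ratio of means of 19.5. Muc5ac, the gel-forming mucin of goblet cells, was at 7.44, 63.6 and 16.3 against 1.18 to 2.66 (median 1.69). For both, the 3 libraries also exceeded all 59 libraries outside the 9-month air groups, where the highest were 6.39 for Fcgbp and 6.13 for Muc5ac. Muc5b, the mucin of resting airways, was at 284, 489 and 103.7 against 36.1 to 117.0, so knockout replicate 5 lay below knockout replicate 3. Agr2 and Foxa3, which goblet cells use to fold and switch on mucins, were under the minimum, with 20 and 4 counts in all 3 libraries together against 4 and 4 in the other 8. Among markers of the airway lining outside goblet cells, none of 9 club cell and none of 10 ciliated cell genes were set apart by the 2-fold rule. Median log2 ratios were -0.11 and 0.21, and 4 and 8 genes had a ratio of means above 1. At any ratio, all 3 libraries lay below all 8 for 2 club cell genes, Cyp2f2 (653.0 to 1230 against 1401 to 1918) and Cckar. The same held for 1 ciliated cell gene, Sec14l3, and for 5.33% of all described genes.

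The type 2 cytokines themselves were barely counted. Il13 had 2 counts over the 3 libraries and 0 over the other 8, Il5 had 1 and 0, Il4 had 5 and 3, and Il9 was at 0 in all 11. A count of 0 allows up to 0.179 CPM over the 8 libraries and up to 0.463 over the 3, so no difference in these cytokines was detectable at this depth. Il33, the alarmin that starts type 2 responses, and Il1rl1, its receptor, were set apart: Il33 was at 146.5, 249.6 and 109.1 normalised CPM in wildtype replicate 5, the library labelled knockout replicate 4 and knockout replicate 5, against 66.3 to 84.9, and Il1rl1 at 21.9, 34.1 and 13.1 against 2.59 to 5.69. They were 2 of 11 described members of the list of type 2 cytokines and receptors.

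Eosinophil genes gave a mixed picture. Rnase2a, a ribonuclease of the eosinophil-associated family, was at 5.12, 94.1 and 16.8 normalised CPM in wildtype replicate 5, the library labelled knockout replicate 4 and knockout replicate 5, against 0 to 2.36 in the other 8. Its family is made of near-identical copies, so reads may be split among them. Ccl11, the chemokine eotaxin, was at 9.30, 64.1 and 20.4 against 2.85 to 5.03, and Alox15, a lipoxygenase of eosinophils and alternatively activated macrophages, at 13.0, 77.1 and 18.6 against 4.44 to 8.85. These were the 2 of 9 described members of the eosinophil list that were set apart. Of the genes that define eosinophils, Epx had 5 counts over the 3 libraries and 1 over the other 8, and Ear6 was at 0 in all 11. Prg2, which encodes the major basic protein of their granules, was at 2.72 to 7.17 normalised CPM against 0.440 to 2.85, from 35 counts over the 3 libraries and 17 over the other 8. Ccr3, the eotaxin receptor, was at 5.12 to 28.7 against 1.76 to 6.87, from 93 and 81 counts. Both overlapped between the sides. Ear1 and Ear2, of the same family as Rnase2a, had ratios of means of 0.632 and 0.700. Siglecf, which mouse alveolar macrophages also carry, was at 23.5 to 27.3 against 10.7 to 19.3. Summed over the list, eosinophil markers lay at 73.5 to 243.4 against 45.2 to 64.2, and their part in the other differences was not tested. None of 3 described mast cell and basophil genes was set apart, and Mcpt1, Mcpt2 and Mcpt8 each had 1 count over the 3 libraries, against 1, 0 and 4 over the other 8.

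Chemokines that draw neutrophils had the highest median of any list, a log2 ratio of 3.20, with 4 of 6 described members set apart higher. Cxcl3 was at 29.8, 60.5 and 12.2 normalised CPM in wildtype replicate 5, the library labelled knockout replicate 4 and knockout replicate 5, against 0 to 3.10 in the other 8 (median 0.207), a ratio of means of 58.4. Cxcl1 was at 16.3, 40.8 and 11.3 against 0.711 to 3.54, Cxcl2 at 6.51, 19.7 and 9.05 against 0 to 2.21, and Cxcl5 at 16.7, 40.3 and 24.0 against 1.32 to 7.08. None of 8 neutrophil markers was set apart, although 6 had a ratio of means above 1, as did 52.1% of all described genes (list median log2 ratio 0.25). S100a9 was at 27.4, 87.4 and 57.9 against 16.4 to 138.0, the highest being knockout replicate 6. Retnlg was at 7.44, 58.3 and 16.8 against 4.27 to 21.2, and Csf3r had a ratio of means of 0.772. Among CC chemokines 6 of 10 were set apart higher (median log2 ratio 2.58), including Ccl2, which recruits monocytes, at 1.86 to 14.8 against 0 to 1.77, and Ccl3, at 4.98 to 20.2 against 0 to 2.21.

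The list with the most genes set apart was that of lipid-laden and scar-type macrophages, 14 of 20, with a median log2 ratio of 1.35. Mmp12, the macrophage elastase, was at 44.6, 199.9 and 47.1 normalised CPM in wildtype replicate 5, the library labelled knockout replicate 4 and knockout replicate 5. In the other 8 it was 2.07 to 5.90 in 7 and 35.9 in knockout replicate 3. Ctsk, a collagen-degrading cathepsin, was at 319.4, 293.1 and 103.7 against 21.3 to 51.8 (median 28.4), Spp1, which encodes osteopontin, at 362.7, 594.3 and 220.4 against 42.7 to 119.2 (median 55.0), and Gpnmb, a protein of lipid-filled lysosomes, at 720.2, 527.0 and 172.9 against 76.8 to 167.0. The gap for Gpnmb was narrow, since knockout replicate 5 held 172.9 and knockout replicate 3 held 167.0. The other 10 were Acp5, Atp6v0d2, Trem2, Ctsd, Lgals3, Lpl, Lipa, Fabp5, Cd63 and Ctsb, several of them enzymes or membrane proteins of the lysosome.

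Lysosome genes as a list had 7 of 22 set apart higher and 21 of 22 with a ratio of means above 1 (median log2 ratio 0.85). Ctsd, the aspartyl protease cathepsin D, was at 2939, 2088 and 1279 normalised CPM in wildtype replicate 5, the library labelled knockout replicate 4 and knockout replicate 5, against 640.5 to 870.1 (median 728.6). Ctss, which trims the class II invariant chain, was at 374.3 to 782.5 against 195.7 to 315.0. For Ctsd, the order of the 3 libraries was that of Chil3.

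Markers of resident alveolar macrophages did not move as 1 block. Of 17 described, 5 were set apart higher, Itgax among them at 558.9, 467.9 and 210.9 normalised CPM in wildtype replicate 5, the library labelled knockout replicate 4 and knockout replicate 5, against 73.6 to 151.5 (median 85.5). Marco, a scavenger receptor, was at 274.3, 245.1 and 70.6 against 45.5 to 70.9, and Plet1 at 247.4, 137.1 and 46.2 against 71.3 to 108.4, so knockout replicate 5 was within or under the other 8 for these. Ear1 and Ear2, whose ratios were under 1, are on this list as well. Interstitial macrophage and monocyte markers had 3 of 12 set apart, the lipopolysaccharide co-receptor Cd14 (42.5 to 78.4 against 8.36 to 18.3) and the complement genes C1qa and C1qc. Proliferation genes were all above a ratio of 1 (14 of 14), with 5 set apart, among them Top2a, the topoisomerase of dividing cells, at 23.5 to 52.9 against 8.01 to 18.0.

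**Figure D3:**
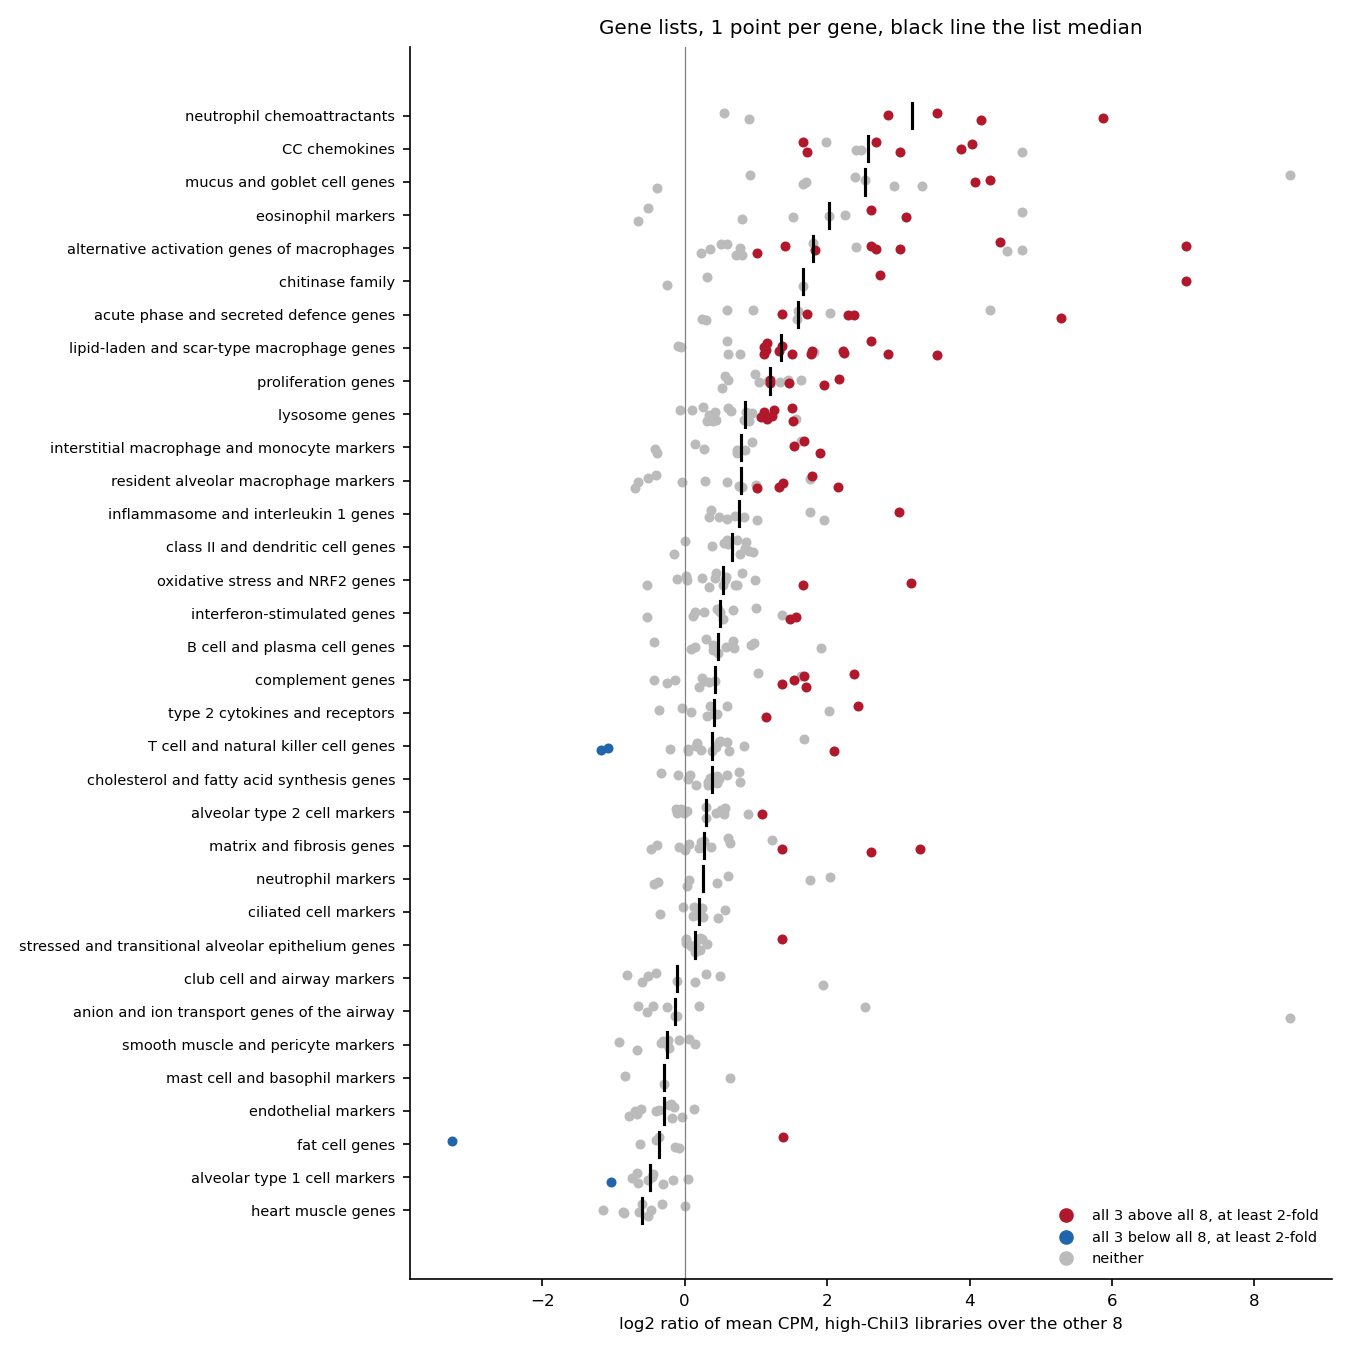
Log2 ratio of mean normalised CPM, the 3 high-Chil3 libraries over the other 8, for each described gene of 34 lists, with the list median as a black line; red and blue points mark genes whose 3 values all lie above or below the other 8 by at least 2-fold. Medians run from 3.20 for neutrophil chemoattractants to -0.60 for heart muscle genes.

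Of 13 acute phase and secreted defence genes 5 were set apart higher and none lower (median log2 ratio 1.59). Saa3, an acute phase protein, was at 14.4, 240.7 and 53.9 normalised CPM in wildtype replicate 5, the library labelled knockout replicate 4 and knockout replicate 5, against 0.828 to 3.77 in the other 8 (median 2.91), and Lcn2, which binds bacterial iron carriers, at 475.7, 496.1 and 150.7 against 56.1 to 102.3 (median 76.9). Chil1, the chitinase-like protein of epithelium and macrophages, was at 784, 891 and 357 against 68.7 to 144.0. Il1rn, the antagonist of interleukin 1, was at 37.7, 125.0 and 34.9 against 5.79 to 12.8, and Slc7a11, the cystine importer, at 67.0, 97.7 and 30.3 against 3.08 to 14.2.

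Several of the widest ratios belonged to genes of other kinds. Sorcs1, a sorting receptor best known from neurons, was at 76.3 normalised CPM in wildtype replicate 5, 16.6 in the library labelled knockout replicate 4 and 3.17 in knockout replicate 5, against 0 to 2.21. Inhba, the subunit of activin A, followed the same order at 54.9, 34.1 and 9.05 against 1.24 to 3.54, as did Wfdc17, a small secreted protein made by macrophages, at 26.0, 21.1 and 9.51 against 0.711 to 3.52. Col6a5, a collagen VI chain, and Timp1, an inhibitor of matrix proteases, had the other order, with 94.6 and 73.5 in the library labelled knockout replicate 4. Timp1 was at 4.65 in wildtype replicate 5, next to the 4.14 of the highest of the other 8, and was not set apart within wildtype libraries. Jchain, which joins antibodies, was not set apart (161.1 to 750.9 against 41.8 to 272.0), but wildtype replicate 5 held the highest value of the series, where the highest of the 59 was 272.9.

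Lower genes were fewer and closer to the other 8. Cdh13, a cadherin of vessel and other cells, was at 15.8, 18.8 and 15.8 normalised CPM in wildtype replicate 5, the library labelled knockout replicate 4 and knockout replicate 5, against 33.6 to 52.1 (median 45.6), which made it 2.60-fold lower by means. Epb4.1l3, a membrane skeleton protein, was at 2.32 to 5.83 against 8.39 to 14.1, and Pon1, a paraoxonase, at 13.4 to 47.1 against 56.6 to 83.9. Rtp3, Peg3, Fndc1, B130024G19Rik and A930005H10Rik were the others among the 8 widest such ratios of genes averaging 5 CPM or more, at 2.34-fold to 2.90-fold lower. Akap5, a scaffold protein used as a marker of alveolar type 1 cells, was at 386.9, 429.3 and 368.9 against 631.1 to 963.2 (median 814.4), and 9 of the 10 type 1 markers had a ratio of means under 1 (median log2 ratio -0.48). Endothelial markers had a ratio under 1 in 11 of 12 (median log2 ratio -0.30), none of them set apart by the 2-fold rule. Of the 12, 4 lay below all 8 in all 3 libraries. The same held for 4 of the 10 type 1 markers, Clic5, Akap5, Emp2 and Cav1, and for 5.33% of all described genes. Cdh5, the cadherin of endothelial junctions, was at 363.1 to 395.3 in the high-Chil3 libraries and 545.0 to 670.7 in the other 8, and Kdr, the main receptor for vascular endothelial growth factor, at 240.4 to 313.7 against 398.3 to 519.7. Other members overlapped: Gpihbp1, which holds lipoprotein lipase on capillaries, was at 44.2 to 129.5 against 66.9 to 101.8, Cldn5, a tight junction claudin, at 96.7 to 241.7 against 124.9 to 231.7, and Plvap at 147.9 to 244.4 against 182.1 to 307.2. Vwf, the von Willebrand factor, was at 508.7 to 768.6 against 515.2 to 712.7, with a ratio of means above 1. Heart muscle genes, a sign of how much tissue around the pulmonary veins was taken, summed to 123.7 to 507.4 against 269.0 to 944.7. Of 7 fat cell genes, Adipoq was set apart lower with 1 library above 0. Fabp4, which is also on the list of resident alveolar macrophages, was set apart higher (27.2 to 43.0 against 5.90 to 22.9). The part of dissection in these differences was not tested.

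None of 12 class II and dendritic cell genes was set apart by the 2-fold rule, but all 3 libraries lay above all 8 for 5 of them, 11 had a ratio of means above 1, and the median log2 ratio was 0.67. Over all described genes, all 3 lay above all 8 for 5.12%, and 52.1% had a ratio of means above 1. H2-Aa, a chain of the class II molecule that presents antigen, was at 443.1 to 671.8 normalised CPM against 265.4 to 345.9, and H2-Ab1, its partner chain, at 486.8 to 664.2 against 275.2 to 319.4. Summed over the list, the level was 2362 to 3469 against 1605 to 1902. None of 13 B cell and plasma cell genes was set apart, but 12 had a ratio of means above 1 (median log2 ratio 0.47). All 3 libraries lay above all 8 for 1 of them, Cd22 (44.4 to 77.7 against 29.9 to 41.1). Of 17 T cell and natural killer cell genes Ctla4, an inhibitory receptor, was higher (3.25 to 13.0 normalised CPM against 1.14 to 2.84) and Cd8b1 and Klrb1c were lower, all at low levels. Of 13 interferon-stimulated genes, Oas1a and Ifi44 were higher. None of 16 cholesterol and fatty acid synthesis genes was set apart, but 14 had a ratio of means above 1 (median log2 ratio 0.38). At any ratio, all 3 libraries lay above all 8 for 3 of these and below all 8 for 1.

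The 3 lungs did not share 1 order over the 250 higher genes, which were chosen through these lungs, so nothing is read from their spread. For 177 of the 250 higher genes the library labelled knockout replicate 4 was the highest of the 3, for 62 it was wildtype replicate 5, and for 11 it was knockout replicate 5, which was the lowest for 172. The median log2 ratio of the 250 genes to the mean of the other 8 was 1.41 in wildtype replicate 5, 1.81 in the library labelled knockout replicate 4 and 1.02 in knockout replicate 5. In the other 8 it ran from -0.19 to 0.23. Its highest value there was in knockout replicate 3, which was also the highest of the 8 for 82 of the 250 genes, followed by knockout replicate 6 with 43. Genes led by wildtype replicate 5 included Sorcs1, Inhba, Gpnmb and Ctsd. Those led by the library labelled knockout replicate 4 included Retnla, Fcgbp and Saa3. Both kinds of gene therefore gave different orders of the same 3 lungs. With the library labelled knockout replicate 4 left out, 228 genes were set apart higher and 66 lower. With knockout replicate 5 left out the counts were 496 and 161, and with wildtype replicate 5 left out 360 and 120. Fewer libraries make it easier for all to lie beyond the rest. Among the other 8, only leaving out knockout replicate 6 moved a count by more than 1.5 times, to 60 lower genes.

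Set against the rest of the series, 198 of the 250 genes were higher in all 3 lungs than in every air library of 1 day and 3 months, and 36 were higher than in all 59 libraries outside the 9-month air groups, silica lungs included. The 250 were chosen because these 3 lungs lay above the other 8, so both counts follow in part from that choice. The same limit holds for the 38 lower genes. Shares over all described genes were not counted, so nothing is concluded from these counts. The 36 included Retnla, Chil4, Rnase2a, Fcgbp, Muc5ac, Col6a5, Itgax, Cd14, Lgals3, Ctss, Ctsl and Lyz2, the lysozyme of macrophages and type 2 cells, at 6782 to 8522 normalised CPM against 2852 to 4148 in the other 8 and at most 6102 in the 59. The margin was wide for Retnla (at least 565.9 against at most 180.2) but narrow for several others, such as Lgals3 (262.1 against 261.4). Of the 38 lower genes, Akap5, Cdh13, Peg3, Synm and Tubb4a were below all 59, by narrow margins for Cdh13 (at most 18.8 against at least 19.1). For Mmp12 and Cxcl1, in contrast, only the library labelled knockout replicate 4 exceeded the silica lungs, of which the highest held 185.3 and 29.9.

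The silica comparisons of 1 day and 3 months use none of the 11 lungs, so they test the same genes in other animals. For each, edgeR quasi-likelihood tests were run over all genes of a time, with p-values adjusted by Benjamini and Hochberg and a threshold of 0.05. At 1 day 174 of the 250 higher genes had enough counts to test. In knockout lungs 72 of them rose with silica, where 1.70% of all genes rose, and in wildtype lungs 79 did, where 1.95% of all genes rose. At 3 months 176 were tested, and 116 rose in knockout lungs (3.02% of all genes) and 85 in wildtype lungs (2.24% of all genes). The median log2 fold change of the tested members was 0.61 in knockout and 0.57 in wildtype lungs at 1 day, and 0.83 and 0.68 at 3 months, while that of all genes ran from -0.01 to 0.00. None of the members was called lower in these 4 comparisons by edgeR or by DESeq2, and at an unadjusted p under 0.05 edgeR had 0 to 2 of them lower.

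Of the 38 lower genes 24 were tested. Of these, none fell with silica in knockout lungs at 1 day by edgeR or DESeq2 (0.223% of all genes fell, and 4 members had an unadjusted p under 0.05), and 2 fell in wildtype lungs (0.422% of all genes), Fndc1 and Tril. At 3 months 5 fell in knockout lungs (1.78% of all genes), Akap5, Fndc1, Pon1, Rab6b and Tril, and 2 in wildtype lungs (0.720%), Pon1 and Rab6b. Akap5 fell by 0.46 (standard error 0.07) on the log2 scale in knockout lungs (edgeR, adjusted p = 1.13e-04). With the 2 compared groups alone in the fit, the 5 became 2.

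Read gene by gene, 46 of the 250 rose in all 4 comparisons, and 115 were called in none, 74 to 76 of the 250 being too low to test. The 46 included the neutrophil chemokines Cxcl3, Cxcl1 and Cxcl5, the defence genes Saa3, Lcn2, Cfb and C3, and the macrophage genes Mmp12, Ctsk, Spp1, Gpnmb, Itgax, Cd14 and Lyz2. Ctsk rose by 1.37 (standard error 0.19) on the log2 scale in knockout and 1.22 (0.17) in wildtype lungs at 1 day, and by 2.66 (0.16) and 2.67 (0.15) at 3 months. Saa3 rose by 5.88 (0.39) in knockout and 4.80 (0.33) in wildtype lungs at 1 day. Retnla rose by 1.12 (0.23) in knockout and 1.07 (0.21) in wildtype lungs at 1 day (edgeR, adjusted p = 0.00309 and 0.00166) and by 0.86 (0.24) in knockout lungs at 3 months (adjusted p = 0.0294), where the call was lost with only the 2 compared groups in the fit (0.87). In wildtype lungs at 3 months its change of 0.62 (0.23) did not pass (edgeR, adjusted p = 0.162), and without the knockout silica library of replicate 3, which shares the estimate of spread, it passed at 0.64. Retnla reached at most 107.9 normalised CPM in the silica lungs of 1 day and 85.4 in those of 3 months, far under its level in the 3 air lungs. Chil3 rose in knockout lungs at 3 months alone, by 0.78 (0.19, edgeR adjusted p = 0.0103), and without the knockout silica library of replicate 3 the value was 0.48. Slc26a4 rose in all 4, by 2.88 (0.45) in knockout and 2.62 (0.25) in wildtype lungs at 1 day and by 2.66 (0.40) and 2.29 (0.22) at 3 months. Clca1, Chil4, Muc5ac, Fcgbp and Rnase2a were too low to test at either time. Col6a5, Alox15, Ccl11 and Il33 were not called in any of the 4.

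The reverse view used the genes that silica raised. In all 4 comparisons together 97 genes were called higher, and in the 9-month air lungs 96 of the 97 had a higher mean in the high-Chil3 libraries than in the other 8, as did 52.1% of all described genes. All 3 lay above all 8 for 64 of them, against 5.12% of all described genes, and the median log2 ratio was 1.36 against 0.02 for all genes. For 46 of the 64 the ratio was also at least 2-fold. These are the same 46 of the 250 genes that were counted above, so the reverse view is no separate support. The exception, Slc13a3, a dicarboxylate carrier, was at 0.453 to 1.40 normalised CPM against 0 to 2.097. The next lowest log2 ratios were those of Noxa1 (0.15), an activator of NADPH oxidase, and Plxnb2 (0.20), a semaphorin receptor, and all 3 were chosen after their values were seen.

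**Figure D4:**
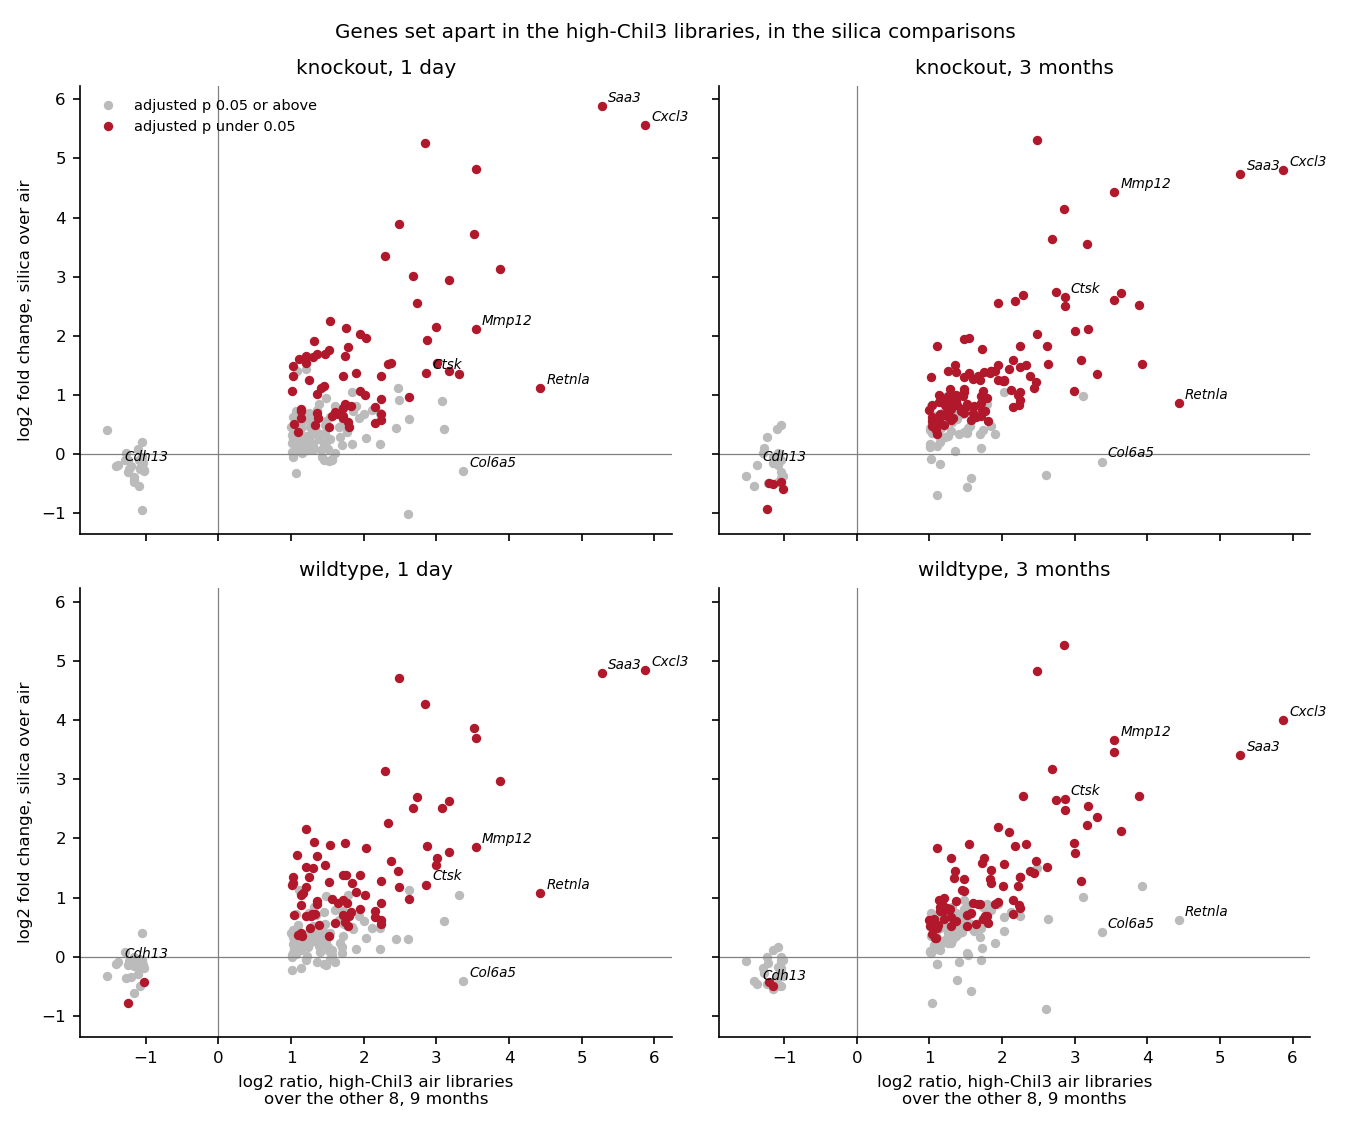
Log2 fold change of silica over air at 1 day and 3 months (vertical), in knockout (top) and wildtype (bottom) lungs, against the log2 ratio of the high-Chil3 air libraries over the other 8 at 9 months (horizontal), for the genes set apart that could be tested; red points passed the adjusted p of 0.05. Cxcl3 and Saa3 are high on both axes, Retnla has a ratio of 4.43 but silica changes of 0.62 to 1.12, and Col6a5 lies between -0.40 and 0.42 after silica.

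At 9 months the 3 lungs belong to the air groups against which silica lungs are set, so the comparison was made with and without them. With all 22 libraries, 23 genes were called in knockout lungs, 16 higher (0.125%) and 7 lower (0.0546%), and 3 in wildtype lungs, Ly6i, Slc39a8 and Vnn1, all higher (0.0234% of genes) with none lower (0%). At an unadjusted p under 0.05, 447 genes were lower in wildtype lungs, and DESeq2 called 0 of them. Without the 3 libraries, 218 genes were called in knockout lungs, 189 higher (1.47%) and 29 lower (0.226%), and 211 in wildtype lungs, 156 higher (1.22%) and 55 lower (0.428%). Taking out control lungs that stand apart lowers the spread by construction, and the 3 were chosen by a measured value, so the larger counts are given as a dependence on these lungs and not as the better answer.

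Of the 196 genes gained in knockout lungs 66 were among the 250 higher genes, and of the 208 gained in wildtype lungs 76 were. These counts share their control lungs with the choice of the 250 genes and are no independent support. Among the 250, Ly6i, a surface protein of the Ly6 family, was the 1 gene called higher with all libraries, by 3.31 (standard error 0.40) in knockout and 3.02 (0.45) in wildtype lungs. Without the 3 libraries 67 were called higher in knockout and 76 in wildtype lungs, where Mt2, a metallothionein, was called lower (-1.02, 0.26). Of the 38 lower genes, Cdh13, Peg3 and Pon1 were called lower in wildtype lungs without the 3 and none in knockout lungs, where 4 had an unadjusted edgeR p under 0.05. Cxcl3 had a log2 fold change of 3.29 (standard error 0.57) in knockout lungs without the 3 libraries and of -0.47 (0.85) with them, and in wildtype lungs 4.69 (0.81) without and 0.29 (1.07) with them. Saa3 in knockout lungs had 2.55 (0.41) without and -1.67 (0.77) with them. Ccl3 had 3.25 (0.42) without and 1.16 (0.63) with them in knockout lungs, and 3.57 (0.45) and 1.41 (0.70) in wildtype lungs. Tnfrsf9, a costimulatory receptor, and Mab21l3 completed the 5 largest gains in knockout lungs, and Mmp12, Cxcl5 and H2-M2 those in wildtype lungs.

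Retnla and Clca1 were not called at 9 months in either way. Retnla had a log2 fold change of -2.60 (standard error 0.80) in knockout lungs with all libraries and 0.55 (0.26) without the 3, and in wildtype lungs -0.96 (0.88) and 0.42 (0.30). Slc26a4 was called higher in silica lungs without the 3 libraries, by 2.16 (0.44) in knockout and 1.89 (0.27) in wildtype lungs, and with them the values were -0.12 (0.64) and 1.03 (0.55). Without the library labelled knockout replicate 4 alone, 63 genes were called in knockout lungs, and the value of Slc26a4 was 1.14. Without wildtype replicate 5 alone, 20 were called in wildtype lungs.

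**Figure D5:**
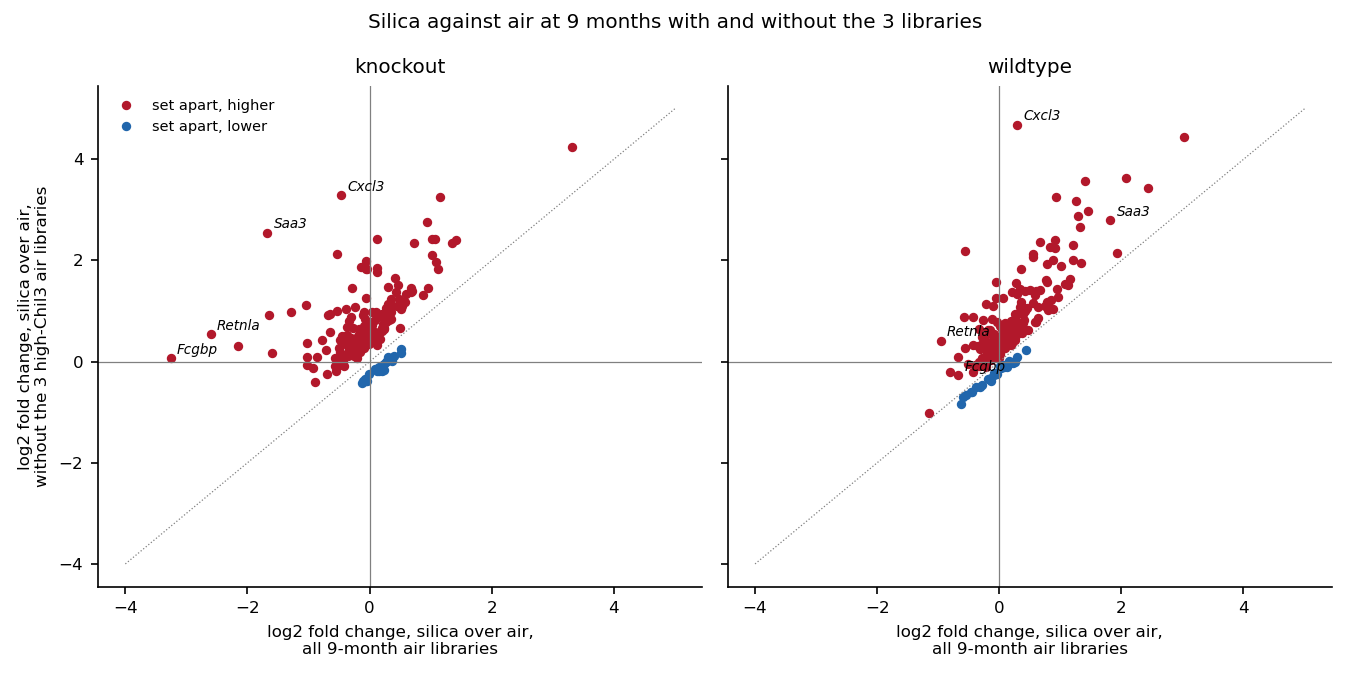
Log2 fold change of silica over air at 9 months with all air libraries (horizontal) against that without the 3 high-Chil3 air libraries (vertical) for genes set apart, in knockout (left) and wildtype (right) lungs; the dotted line marks equal values. Most genes in red (set apart higher) lie above the line, Cxcl3 in knockout lungs at -0.47 with and 3.29 without the 3, and those in blue (set apart lower) lie below it.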

How the data were processed

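Per the labels' protocols, RNA from a lung piece was stripped of ribosomal RNA, prepared with the TruSeq Stranded Total RNA kit and amplified for 12 cycles. The submitters' processing notes name bcl2fastq 2.19, Trimmomatic 0.35, HISAT2 2.1.0, Cufflinks, SAMtools 1.8, HTSeq 0.11.2 and mm10, with no order. Which annotation and strand option the counting used is not given in the sources used here, so reads of overlapping or antisense genes may be shared. The authors deposited 1 table of raw read counts per gene, 24439 rows for 70 libraries. From it 16 duplicate rows, equal in gene and counts, were left out.

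TMM factors for normalised CPM were computed over the 70 libraries together (0.951 to 1.05). The high-Chil3 libraries were compared with the other 8 without a test. A fold against the 8 is a ratio of means. Silica comparisons were fitted per time over its 4 groups by edgeR 4.0.16 quasi-likelihood in R 4.3.3 after filterByExpr, with Benjamini-Hochberg adjustment over 12558 genes at 1 day, 12647 at 3 months and 12826 at 9 months. A standard error is the size of the fitted log2 change divided by the root of the F statistic. Alternatives were DESeq2 1.42.0 and its size factors, other filters, only the compared groups and leaving out libraries, with each genotype alone added after seeing the data. The script was tested on simulated data with 200 changed genes. Promoters came from RefSeq on GRCm38.p6.

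The named genes are Chil3, Retnla, Clca1 and Slc26a4, the 15 largest ratios and 8 largest falls among genes set apart that averaged 5 CPM or more, from each of 34 lists up to 4 members set apart (or the 2 of highest mean where none was), and the 5 largest gains per genotype at 9 months. Other genes in the text define a cell type or stand behind a small count, and were chosen after their values were seen. The lungs, the lists and the rules were chosen with earlier results of these data known. Of 427 listed symbols, 421 were in the table. Replicate numbers follow accession order. The number of counts limits every value, and PCR copies are not separate molecules. One item is not reported here.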

Additional observations from a re-analysis of the deposited data

Results flagged for a closer look

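Over the 4 genes that are always named and the 12 groups of exposure, genotype and time, 48 sets of 5 or 6 libraries were looked at for 1 library far from the rest, and 13 were found. Chance finds about 1 in 20 such sets where values spread normally, a rate that need not hold for Clca1, which is at 0 in many libraries. The high-Chil3 air libraries were picked by their Chil3 level. Their flags are therefore not independent of that choice and cannot be set against this rate.

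In wildtype air lungs of 9 months, replicate 5 stood alone for all 4 genes, with 7986 normalised CPM of Chil3 against 673 to 850 in the other 4, 566 of Retnla against 44.6 to 87.3, 10.2 of Clca1 against 0 and 73.9 of Slc26a4 against 6.40 to 21.5. In knockout air lungs of 9 months, the library labelled replicate 4 stood alone for Retnla at 3588 against 59.4 to 844.7, for Clca1 at 2118 against 0 to 477.1 and for Slc26a4 at 51.5 against 1.32 to 16.8. Chil3 did not mark a single library there, since 2 were high.

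The knockout silica library of replicate 3 at 3 months had 1404 normalised CPM of Chil3 against 393 to 699 in the other 5, and 17.7 of Retnla against 62.8 to 85.4. The other 4 sets concern Clca1 at low levels: 4.60 normalised CPM in wildtype air replicate 6 of 1 day against 0 to 0.451, 0.591 in wildtype silica replicate 3 of 3 months against 0, 3.33 in knockout silica replicate 1 of 3 months against 0 to 0.846, and 5.77 in wildtype silica replicate 3 of 9 months against 0 to 1.09.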

How the results depend on the processing

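Of 108 alternatives for the main counts, 80 stayed within 1.5 times. Genes set apart higher numbered 470 in knockout libraries only and 228 to 496 with 1 of the 11 libraries left out, and genes set apart lower 21 with a mean of at least 5 CPM, 141 in knockout libraries only and 42 to 161 with 1 library left out. Fewer libraries make it easier for 3 to lie beyond the rest. Among the 38 lower genes, 1 fell at 1 day in knockout lungs without the silica library of replicate 3 (0 with it), 1 fell in wildtype lungs at 3 months with DESeq2 size factors, with the DESeq2 Wald test and with no low-count filter (2 otherwise), and 2 in knockout lungs at 3 months with the compared groups only (5 otherwise).

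Silica against air at 9 months called 211 genes in wildtype lungs without the 3 air libraries and 20 without wildtype air replicate 5 alone, the leave-one-out counts running from 2 to 20. In knockout lungs it called 54 by DESeq2, 14 with the compared groups only and 218 without the 3, and 7 to 63 with 1 library left out, 63 being without the air library labelled replicate 4. Where at least 1 of the compared fits called the gene, directions reversed only without the 3 air libraries. These were Inhba in wildtype lungs (2.18), and in knockout lungs Slc26a4 (2.16), Cxcl3 (3.29), Saa3 (2.55), Inhba (1.84), Mmp12 (1.88) and Cxcl1 (1.99). Changes of sign in genes that neither fit called are not listed, such as Retnla in knockout lungs (-2.60 with all libraries, 0.55 without the 3). For single genes, 1487 of 1527 alternatives were counted as unchanged, which allows a change of sign where neither fit called the gene. The call of Retnla in knockout lungs at 3 months was lost with the compared groups only (0.87), and gained in wildtype lungs (0.63). The cause of these changes was not tested. No paired analysis was possible because the labels number no replicates and tie no lung of 1 group to a lung of another. Type 2 cytokine genes were limited by depth.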

Other observations

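Among the 59 libraries outside the 9-month air groups, the highest Chil3, Retnla and Clca1 were all in silica lungs of 9 months, but not in the same lung. The wildtype silica library with the most Chil3 (replicate 5, 2462 normalised CPM) had 146.0 of Retnla and 1.09 of Clca1. Knockout replicate 3 had the most Retnla (180.2) and Clca1 (29.4), with 988.7 of Chil3, and knockout replicate 6 had 23.5 of Clca1 and 742.4 of Chil3.

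In 1 knockout silica lung of 3 months (replicate 3) genes that were high together in the 3 air lungs parted. It had the highest of its 6 libraries for Chil3 (1404), Mmp12 (185.3), Gpnmb (266.6), Itgax (186.1) and Spp1 (190.8). For Retnla (17.7), Cxcl3 (0.421), Ccl17 (0.842), Slc26a4 (3.37) and Lcn2 (166.4) it had the lowest. The same library had the lowest Scgb1a1 (3888 normalised CPM) and Ager (839.3) and the highest Pecam1 (1013) of all 70 libraries. The genes given here are a selection from the named genes. No reason was tested.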
